A study of Homo sapiens with 4 samples.

Results

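The EIF and EEF translation factors are the proteins that start and carry out protein synthesis on cytosolic ribosomes, and their mRNAs were examined in the total RNA of extracellular vesicles (EVs) from PC3 cells. PC3 cells are an established human line that was grown from a prostate tumour's metastasis in bone. The genes were chosen by name alone, as the protein-coding genes of GENCODE release 44 whose symbol starts with EIF or EEF and a digit, without the kinases, binding proteins and methyltransferases named after them. This gave 57 genes of the 19629 protein-coding genes in the table, among them EEF1E1-BLOC1S5, a readthrough locus that joins EEF1E1 to its neighbour. The data were 2 stranded total RNA libraries, 1 from each of 2 biological replicates of PC3-EVs, isolated by an affinity kit and gravity-flow columns from medium with exosome-free serum. All samples were untreated EVs of a single cell line, with no EVs of other cells and no PC3 cell RNA beside them, so levels describe the vesicle RNA and nothing can be said of its enrichment over the cells. The title of the replicate 2 library carries the preparation name of replicate 1 while its description names another, so the separate origin of the libraries rests on the description and the study's methods. Their counts differed beyond counting noise, but that comparison covers the libraries only and cannot show whether the preparations were separate.

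Translation starts when eIF2 brings the initiator methionyl-tRNA to the small ribosomal subunit, which eIF3, the largest initiation factor, eIF1, eIF1A and eIF5 hold in a form that can scan. The eIF4 factors bind the cap of the mRNA and unwind its leader, and eIF5B then joins the large subunit. During elongation eEF1A delivers each aminoacyl-tRNA, eEF1B recharges eEF1A with GTP, eEF2 moves the ribosome along the mRNA, and eIF5A, which carries the modified lysine hypusine, helps the ribosome past difficult peptide bonds. Growing cells express these genes at high levels, and several have close paralogues and many processed pseudogenes.

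The counting left out reads with several equally possible positions, so the likeness between paralogues decides what a count can show. The first 30 coding bases of the pairs that matter are printed here from GRCh38, in lower case and 5′ to 3′ on the coding strand, with each base that differs from the first gene of its set in capitals. The set of eEF1A genes is shown because both of its genes were well counted and differed in level, with EEF1A1 read from chr6:73519997-73520026 and EEF1A2 from chr20:63497734-63497763, both on the minus strand.
EEF1A1: atgggaaaggaaaagactcatatcaacatt
EEF1A2: atgggCaaggaGaagacCcaCatcaacatC
The eIF5A set comes from chr17:7309636-7309665 (EIF5A, plus strand), chr10:79512650-79512679 (EIF5AL1, plus) and chr3:170907777-170907806 (EIF5A2, minus).
EIF5A: atggcagatgacttggacttcgagacagga
EIF5AL1: atggcagatgaTttggacttcgagacagga
EIF5A2: atggcagaCgaAAtTgaTttcACTacTgga
The eIF3c set comes from chr16:28711687-28711716 (EIF3C, plus) and chr16:28403589-28403618 (EIF3CL, minus).
EIF3C: atgtcgcggtttttcaccaccggttcggac
EIF3CL: atgtcgcggtttttcaccaccggttcggac
EEF1A1 and EEF1A2 differed at 5 of the 30 bases and their whole coding sequences were 78.1% identical when aligned, so reads of one can usually be told from the other. EIF5A and EIF5A2 were 71.4% identical, but EIF5A and EIF5AL1 were 98.9% and EIF3C and EIF3CL 99.9% identical. Of all stretches of 31 bases in the exons of EIF3C, 98.7% occur again elsewhere in the genome, as did 99.2% for EIF3CL and 73.5% for EIF5AL1, so the counts of these genes cover only a small part of their sequence.

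In the files 489170 reads were counted on genes in replicate 1 and 475942 in replicate 2, which were 2.50% and 2.16% of all reads listed, while 45.5% and 48.1% were listed as not uniquely aligned and 36.3% and 35.4% as outside annotated features. Scaled to a total of 1000000 gene-counted reads (CPM), 1 read is 2.04 CPM in replicate 1 and 2.10 in replicate 2, and the lowest level taken as shown, 3 reads, is 6.13 and 6.30 CPM. All 6 marker genes of PC3 cells were counted in both libraries, with a summed level of 2658 and 2963 CPM and 966 and 1088 reads of KRT8. No read of the blood genes HBA1, HBA2, HBB and PTPRC or the liver genes ALB and APOA1 was counted. Of the bone genes, BGLAP had none and COL1A1 had 35 and 1. A count of 0 was common, since 11333 of the 19629 protein-coding genes had no read in either library. These zeros therefore do not show that such RNA was absent. Even counts outnumbered odd ones. Among counts from 2 to 51, which hold as many even as odd numbers, 73.3% of the genes of replicate 1 and 71.0% of those of replicate 2 had an even count, as did 20 of 24 and 23 of 29 translation factor genes. The part of this excess in the counts and levels was not tested, though the test between replicates was repeated on halved counts. The floors and intervals given here cover counting error only and take each read as independent.

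**Figure D1:**
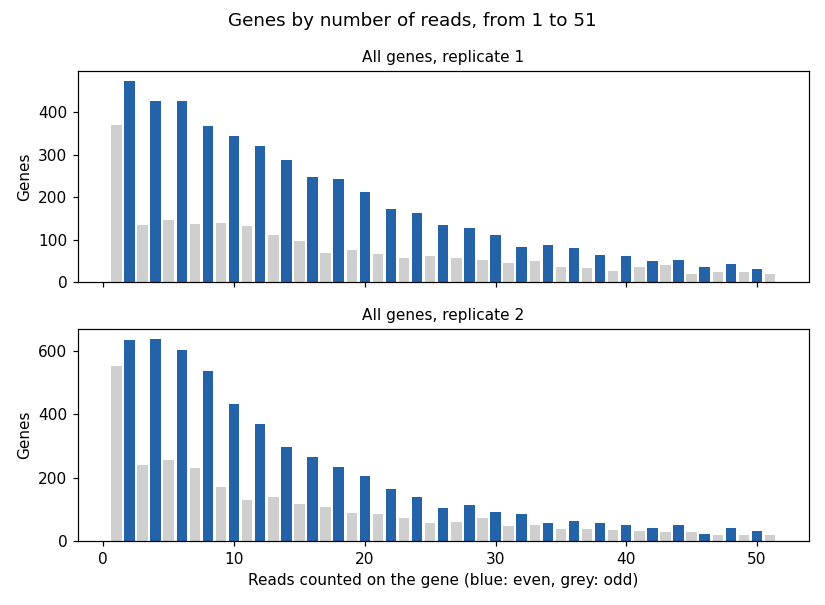
Number of genes, over all genes of the table, at each count from 1 to 51 reads in replicate 1 (top) and replicate 2 (bottom), with even counts in blue and odd counts in grey. Even counts are the more frequent in both libraries, 73.3% and 71.0% of the genes with 2 to 51 reads.

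Both replicates held reads of 29 of the 57 genes (50.9%), against 21.9% of all protein-coding genes. A further 15 had reads in a single library, 6 in replicate 1 and 9 in replicate 2, and 13 had none in either. With at least 10 reads in both replicates, 18 remained (31.6%), against 11.6% of all protein-coding genes. These differences are a description and were not tested. In total 2129 reads of replicate 1 and 1568 of replicate 2 fell on translation factor genes. This was 0.727% (95% Wilson interval 0.697 to 0.758%) and 0.568% (0.540 to 0.596%) of the protein-coding counts and averaged 0.647% ± 0.112 (SD, n = 2). The intervals of the libraries did not overlap. The 86 genes of cytosolic ribosomal proteins held 2.44% ± 0.237 (SD, n = 2) without RPS29, and 18.8% ± 3.25 (SD, n = 2) with it. The 78 genes of mitochondrial ribosomal proteins held 0.143% ± 0.0365 (SD, n = 2).

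Levels were compared between genes as CPM per kilobase of merged annotated exon. On this scale the median over all 57 genes was 4.24, against 24.6 for the cytosolic and 1.23 for the mitochondrial ribosomal protein genes, and 0 over all protein-coding genes. In replicate 1 alone the median was 2.92, with 25.4 and 0 for the cytosolic and mitochondrial ribosomal protein genes, and in replicate 2 alone it was 2.75, with 21.1 and 0.165. Among the highest 10.0% of all protein-coding genes by this level stood 16 translation factors (28.1%).

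**Figure D2:**
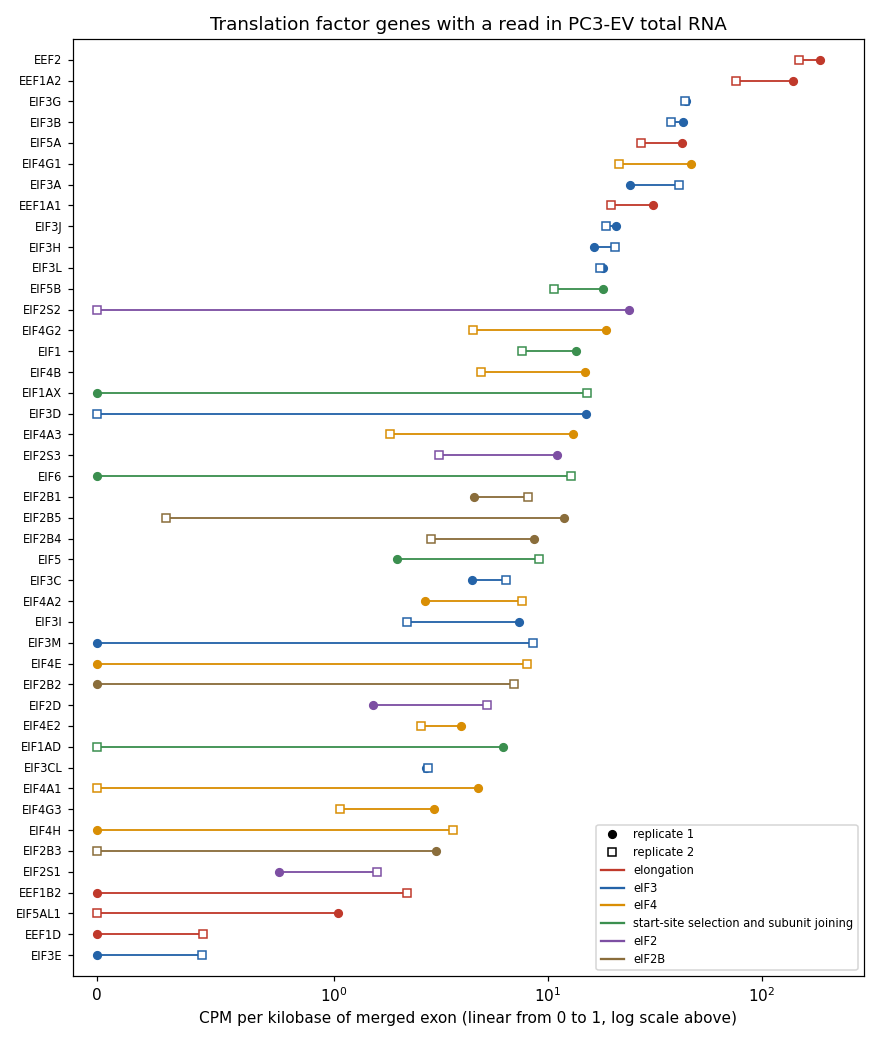
CPM per kilobase of merged exon (horizontal axis, linear from 0 to 1 and logarithmic above) of the 44 translation factor genes with a read, ordered by their mean. Filled circles are replicate 1 and open squares replicate 2, joined by a line coloured by role. Near the top both symbols lie close together for EIF3G and EIF3B and further apart for EEF1A2 (140 and 75.8) and EIF4G1 (46.7 and 21.6). Many genes in the lower part sit at 0 in 1 library.

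The elongation factors took the largest share of the reads, although the median level of these 10 genes was only 0.810 CPM per kilobase. Their share of the family's reads was 42.8% in replicate 1 and 38.0% in replicate 2, on average 40.4% ± 3.38 (SD, n = 2), and most of this came from 3 genes. EEF2 (ENSG00000167658, chr19 minus strand), which encodes the translocase eEF2, had 370 reads in replicate 1 and 288 in replicate 2, or 169 CPM per kilobase ± 26.6 (SD, n = 2). It alone held 17.4% (95% Wilson interval 15.8 to 19.0%) and 18.4% (16.5 to 20.4%) of the reads of the family. EEF1A2 (ENSG00000101210, chr20 minus strand), the eEF1A form known from muscle and nerve cells and amplified in some cancers, had 330 and 174 reads, 108 CPM per kilobase ± 45.3 (SD, n = 2). EEF1A1 (ENSG00000156508, chr6 minus strand), the form of most other cells, had 153 and 95 reads, 25.5 CPM per kilobase ± 7.95 (SD, n = 2).

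EEF1A2 stood above EEF1A1 in both libraries, and the ranges of the genes did not overlap. Per kilobase the ratio of EEF1A2 to EEF1A1 was 4.50 in replicate 1 and 3.82 in replicate 2. It was 2.77 and 2.35 with the longest annotated transcript as the length, and 4.27 and 3.63 with the canonical transcript. This is given as a description, with no test over samples. EEF1A1 has more repeated sequence, since 30.6% of its stretches of 31 bases recur in the genome against 4.6% for EEF1A2. These shares are over all merged exons, 10063 bases for EEF1A1, whose canonical transcript has 3512. The share within that transcript was not examined. EEF1A1 also gives its name to 49 pseudogenes. On 3 of these pseudogenes 16 reads were counted in replicate 1 and 43 in replicate 2. Added to EEF1A1 they make 169 and 138 reads, still below the 330 and 174 of EEF1A2. How many EEF1A1 reads were set aside as aligned to several places cannot be read from the files, and their part in the ratio was not tested.

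EIF5A had 56 and 35 reads, 35.0 CPM per kilobase ± 10.8 (SD, n = 2). Its near copy EIF5AL1 had 2 and 0 reads and EIF5A2 none. The exchange factor genes of eEF1B lay at or under the floor. EEF1B2 and EEF1D each had 0 and 2 reads. EEF1G had none, but 2632 of its 2639 exon bases are shared with the exons of ENSG00000255508, a protein-coding locus on the same strand with 46 and 23 reads, and hardly any of its sequence is its own. No read was counted on EEF1E1, whose product is a scaffold of the tRNA synthetase complex.

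**Figure D3:**
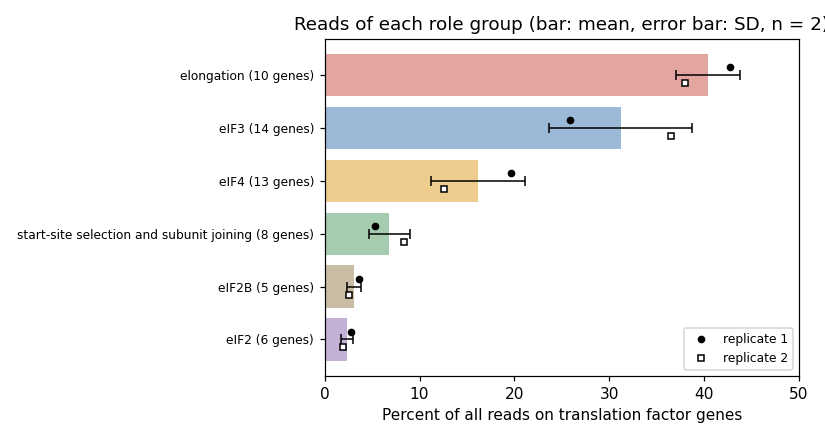
Percent of all reads on translation factor genes that fell on each role group, as the mean of 2 replicates (bar) with its SD (error bar) and the value of each replicate (points). The elongation factors hold 40.4% and eIF3 31.2%, and the points of these groups lie nearer each other in replicate 2 (38.0% and 36.5%) than in replicate 1 (42.8% and 25.9%).

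The subunits of eIF3 followed. The 14 genes held 25.9% of the family's reads in replicate 1 and 36.5% in replicate 2, 31.2% ± 7.54 (SD, n = 2). Both libraries held reads of 9 of the 14. Per kilobase the highest was EIF3G, an RNA-binding subunit of the scanning complex, with 76 and 73 reads, 44.2 CPM per kilobase ± 0.402 (SD, n = 2). EIF3B, a core subunit, had 188 and 161 reads, 40.2 ± 3.62, and EIF3A, the largest core subunit, had 84 and 139 reads, 32.7 ± 12.0 CPM per kilobase (SD, n = 2 each).

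The reads of EIF3J, a loosely bound subunit, were 32 and 28. EIF3H had 52 and 63 reads and EIF3L 38 and 36. These 3 genes lay between 17.8 and 19.9 CPM per kilobase on average. The ranges of EIF3H overlapped with those of EIF3J and EIF3L, while both values of EIF3J (20.9 and 18.8) lay above both of EIF3L (18.1 and 17.6). That order rested on the length used. With the canonical transcript EIF3L had the higher mean, 28.7 CPM per kilobase against 25.1 for EIF3J. Of the 4296 exon bases of EIF3L, 1767 are shared with ENSG00000279738 on its strand, which had no read. The part of this overlap in the count of EIF3L was not tested. Of the remaining subunits, EIF3I had 34 and 10 reads, EIF3C 15 and 21 and EIF3CL 4 and 4. Reads in 1 library only were found for EIF3D, which takes part in binding the cap of some mRNAs, with 28 and 0 reads, for EIF3M with 0 and 30 and for EIF3E with 0 and 8. No read was counted on EIF3F and EIF3K. The subunits work as 1 complex in the cell, and among those with a read their mean level ran from 0.223 CPM per kilobase for EIF3E, whose merged exons span 37761 bases over all annotated transcripts, to 44.2 for EIF3G.

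The cap-binding and unwinding factors of the eIF4 group held 19.6% and 12.6% of the family's reads. The scaffold EIF4G1 had the most of these, 200 reads in replicate 1 and 90 in replicate 2, 34.2 CPM per kilobase ± 17.8 (SD, n = 2). Its relative EIF4G2, which lacks the part that binds eIF4E, had 78 and 18 reads, and EIF4G3 had 17 and 6. EIF4G1 and EIF4G2 passed the test between replicates described further on, both higher in replicate 1, and EIF4G3 did not (exact binomial adjusted p = 0.0543). EIF4B, which stimulates the helicase, had 44 and 14 reads. Among the helicases, EIF4A3, a part of the exon junction complex, had 37 and 5 reads, EIF4A2 had 8 and 22, and EIF4A1, the main form in growing cells, had 12 and 0. Of the 5199 merged exon bases of EIF4A1, 52.6% are free of exons of other genes on its strand, but its canonical transcript has only 1758 bases. On that strand 1468 exon bases are shared with SENP3-EIF4A1 and 2187 with ENSG00000264772, neither with a read. How much of the canonical transcript is shared was not examined, so its low count cannot be read as a low level. EIF4A1 has 13 named pseudogenes, none with a read. EIF4E, the cap-binding protein itself, had 0 and 19 reads and EIF4E2 22 and 14. EIF4H had 0 and 10. No read was counted on EIF4E3, on the germ cell form EIF4E1B or on EIF4ENIF1, which carries eIF4E into the nucleus.

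The other initiation factors held smaller shares of the reads. The median level of the start-site and joining genes, 5.97 CPM per kilobase, and of eIF2B, 5.75, still lay above the 3.24 of the eIF4 group. That of eIF2, 2.27, lay below it. The genes of start-site selection and subunit joining held 6.81% ± 2.19 (SD, n = 2) of the family's reads. EIF5B, the GTPase of subunit joining, led them with 70 and 40 reads, 14.4 CPM per kilobase ± 5.31 (SD, n = 2), and EIF1, which guards the choice of start codon, had 24 and 13. EIF5, which triggers GTP hydrolysis on eIF2, had 8 and 36 reads and EIF1AX 0 and 32. EIF6, which keeps the subunits apart, had 0 and 10 and EIF1AD 10 and 0. No read was counted on EIF1B and EIF1AY. The exchange factor eIF2B, which reloads eIF2 with GTP, had reads on all 5 subunit genes but in both libraries only on EIF2B1 (8 and 14), EIF2B4 (22 and 7) and EIF2B5 (42 and 1), while EIF2B2 had 0 and 18 and EIF2B3 5 and 0. Of the eIF2 subunits, EIF2S1 had 2 and 4 reads, EIF2S2 30 and 0 and EIF2S3 22 and 6. EIF2D, which can place tRNA without eIF2, had 6 and 20 reads, and EIF2A and EIF2S3B had none. EEF1E1-BLOC1S5 also had none, and all of its 768 exon bases are shared with its neighbours.

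In order of level per kilobase, the ranges of the libraries did not overlap between EEF2 and EEF1A2, between EEF1A2 and EIF3G, or between EIF3G and EIF3B. From EIF3B down, each of the next 9 steps joined genes whose ranges overlapped. Genes further apart in the order can also overlap, and EIF4G1 with 46.7 CPM per kilobase in replicate 1 stood above EIF3G with 44.5 there, so the place of EIF3G is not resolved, while EEF2 and EEF1A2 came first and second in both libraries. The order of the first 2 and of genes below them rested on the length used. With the canonical transcript EEF1A2 came first at 293 CPM per kilobase and EEF2 second at 216. By that length EIF4E2 rose from place 33 to 8 and EIF3I from 28 to 10. The 10 highest genes by merged exon and by canonical transcript had 8 names in common. With merged exons, the 10 highest genes in replicate 1 and in replicate 2 had 9 names in common.

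Agreement between the libraries was then examined gene by gene. Over the 37 translation factor genes with at least 10 reads summed, 26 differed between replicates beyond counting noise by a two-sided exact binomial test with Benjamini-Hochberg adjustment over all 5764 protein-coding genes tested (70.3%), against 64.1% of those. Of the 26, 16 were higher in replicate 1 and 10 in replicate 2, beside 1818 (31.5% of those tested) and 1878 over all protein-coding genes. The test compares these libraries with counting noise, not conditions. Since counts were mostly even it was repeated on halved counts, which left 14 of 31 translation factors past the threshold (45.2%) and 1710 of 3890 protein-coding genes. The chi-square against counting noise was 14.0 per gene over the 37 translation factors and 12.5 over all 5764.

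**Figure D4:**
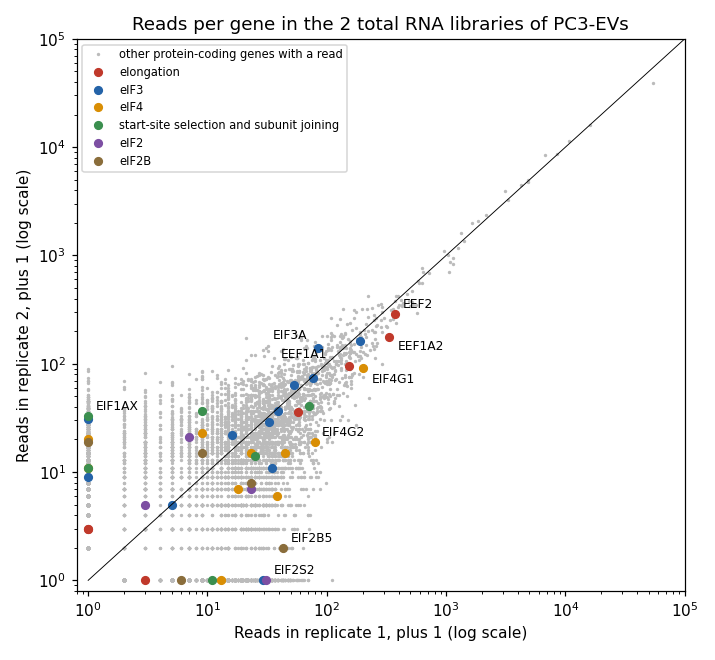
Reads per gene in replicate 1 (horizontal) against replicate 2 (vertical), each plus 1 and on log axes, for all protein-coding genes with a read (grey) and the translation factors coloured by role. EEF2, with 370 and 288 reads, sits near the line of equal counts, while EIF1AX and EIF2S2 lie on the axes, with reads in 1 library only.

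The spread between libraries differed with the number of reads. All 6 translation factors with at least 200 reads summed were found in both libraries, and their CPM differed by at most 2.16-fold, that of EIF4G1 (exact binomial adjusted p = 5.43e-09, higher in replicate 1). EEF1A2 was 1.85-fold higher in replicate 1 (exact binomial adjusted p = 5.65e-10) and EIF3A 1.70-fold higher in replicate 2 (exact binomial adjusted p = 0.000295). EIF3G, EIF3B, EIF3J, EIF3H and EIF3L did not pass the threshold, and their CPM differed between libraries by 1.01-fold to 1.25-fold. Of the 23 genes with 10 to 49 reads summed, 13 were found in both libraries, with a median difference of 3.06-fold. The median was 1.40-fold over the 8 genes with 50 to 199 reads and 1.63-fold over the 6 with at least 200, and of the 7 genes with under 10 reads only 2 were found in both, with a median of 1.54-fold. EIF2B5 had the widest, 42 reads against 1.

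A further pattern was a full set of reads in 1 library and none in the other. Of the 37 translation factors with at least 10 reads in a library, 10 had no read in the other (27.0%), against 32.0% of all protein-coding genes with as many. Measured against the floor of 3 reads in the library without reads, the level of EIF1AX in replicate 2 was 11.0 times that floor. It was 10.3 times for EIF3M in replicate 2 and 9.73 times for EIF2S2 in replicate 1. The others were EIF3D, EIF4A1 and EIF1AD in replicate 1, and EIF4E, EIF2B2, EIF4H and EIF6 in replicate 2, at 3.24 to 9.08 times. These ratios take the observed count as exact and are not lower limits of the fold. The exact 95% lower limit of replicate 1 over replicate 2 was 7.44 for EIF2S2 and 2.18 for EIF1AD. The upper limit of replicate 1 over replicate 2 was 0.119 for EIF1AX and 0.127 for EIF3M. For such genes a count of 0 in a library does not show that the mRNA was absent from it.

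Features that the names did not select for were then compared with the levels. The exons of the 10 highest genes had a median GC of 56.2%, those of the 13 genes without a read 41.5%, and those of all protein-coding genes 48.5%. There was no such step between the genes counted in both libraries, with a median of 45.9%, and those counted in 1, with 46.3%. Of the 9 translation factors with at least 55% GC, a value chosen after the data were seen, 6 were among the 10 highest, namely EEF2, EEF1A2, EIF3G, EIF3B, EIF5A and EIF4G1. The other 4 of the 10 highest had lower values, 37.4% for EIF3J, 41.7% for EIF3H, 42.7% for EIF3A and 45.4% for EEF1A1. EIF6 with 61.4%, EEF1D with 62.0% and EIF4E1B with 57.8% were the members of high GC outside the 10 highest. Across the 57 genes the Spearman correlation of GC with CPM per kilobase was 0.30, and across all protein-coding genes 0.12, over the same libraries and lengths. Of all protein-coding genes with at least 55% GC, 28.5% had a read in both libraries, against 19.2% of the rest. The part of base composition in these levels was not tested.

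**Figure D5:**
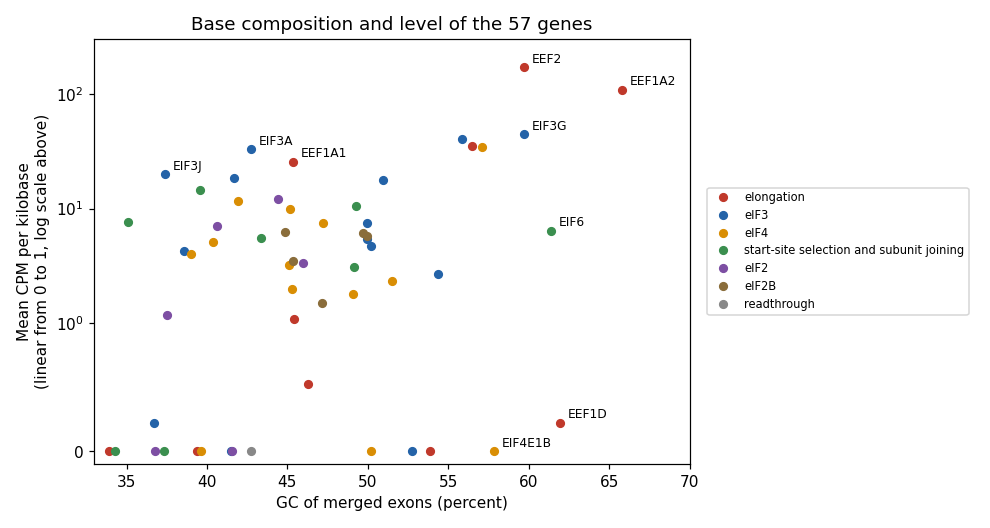
GC of the merged exons (horizontal, percent) against mean CPM per kilobase of 2 replicates (vertical, linear from 0 to 1 and logarithmic above) for the 57 genes, coloured by role. EEF2, EEF1A2 and EIF3G stand at the upper right, and EEF1D and EIF4E1B have similar GC at or near 0.

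Repeated sequence was examined in the same way. The share of exon stretches of 31 bases that recur in the genome had a Spearman correlation of -0.0027 with CPM per kilobase across the 57 genes. Of the 16 genes with more than 25% of such stretches, 8 were counted in both libraries, and of the other 41, 21 were. EIF4B with 53.8% and EIF5A with 26.9% had reads in both libraries, while EIF3F with 9.5% and EIF3K with 12.8% had no read.

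Exons of other genes on the opposite strand were the remaining feature examined, because the libraries are stranded and the strand setting of the counting is not given in the sources used here. Of the 57 genes, 25 have exon bases opposite an exon of another gene in the table, and 16 of these were counted in both libraries, against 13 of the 32 without. Of the 6 genes with the highest CPM, 4 have no such overlap, namely EEF2, EEF1A2, EIF3B and EIF4G1, and no annotated exon lies opposite theirs. In 13 of the 33 overlapping pairs the other gene had more reads. The largest were GPS2 opposite EIF5A, with 396 and 423 reads over a shared 241 bases, TNS2-AS1 opposite EIF4B, with 332 and 247 reads over 747 bases, and ENSG00000263826 opposite EIF4A2, with 203 and 247 reads over 435 bases. P2RY11 opposite EIF3G had 105 and 94 reads, against the 76 and 73 of EIF3G. Whether reads were counted on the strand of the mRNA was not tested for any of the 57 genes, those without an opposite exon among them. Within the shared bases, reads of the 25 members with such an overlap cannot be told apart from reads of their neighbours. The shared part differed between them, for example 61 of 7095 exon bases in EIF3A and 3195 of 9390 in EEF1D.

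Other genes of translation were counted beside the factors. A read in both libraries was found for 21.9% of all protein-coding genes and 50.9% of the EIF and EEF genes. Of the 8 regulators that are named after the factors, 6 had a read in both libraries. EIF4EBP1, which holds eIF4E back from the scaffold, had 4 and 24 reads or 33.3 CPM per kilobase, and EIF2AK1, a kinase of eIF2, had 47 and 27. EEF2K, the kinase that inactivates eEF2, had 20 and 3. Of the 4 genes of poly(A) binding, 3 were counted in both, led by PABPC1, the main poly(A)-binding protein, with 100 and 88 reads. Of the 6 genes of termination and recycling, 3 were, with 22 and 27 reads of GSPT1 and 14 and 31 of the recycling factor ABCE1, while the release factor ETF1 had 0 and 20. Of the 22 genes of cytosolic tRNA synthetases and their scaffold proteins, 12 were counted in both. Their median level was 4.66 CPM per kilobase in replicate 1 and 2.33 in replicate 2, above the 2.92 of the EIF and EEF genes in replicate 1 and below their 2.75 in replicate 2. Of the 8 factors of mitochondrial translation, 4 were. TUFM, the mitochondrial counterpart of eEF1A, had 48 and 18 reads. No read was counted on EEFSEC, the selenocysteine elongation factor. By the exact binomial test, which called 64.1% of all protein-coding genes tested, 2 of 6 regulators tested were higher in replicate 1 and 2 in replicate 2. The counts were 1 and 1 of 3 poly(A) genes, 1 and 3 of 5 termination genes, 6 and 2 of 16 synthetase genes and 1 and 1 of 3 mitochondrial factors.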

How the data were processed

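Total RNA of PC3-EVs was sequenced in 2 biological replicates. Deposited values are raw counts of reads per Ensembl gene, not normalised by the authors. The study's methods name Cutadapt, SHRiMP and SAMtools with the GRCh38 build without saying which served the total RNA, and the submitters' processing notes name HTSeq. Versions, strand setting and annotation release are not given in the sources used here. The miRNA table was not used. Files were matched to replicates by the sample descriptions.

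Gene types, symbols and exons came from GENCODE release 44, which matched 56948 identifiers and left 1103 unmatched, so overlaps between genes may differ from the annotation used for counting. Reads not assigned to genes stayed out of the library totals, which were 489170 and 475942, or 2.50% and 2.16% of all reads listed. Such depth leaves most genes with few reads, and the spread between replicates may be partly technical. Counts were scaled to CPM and, between genes, divided by merged exon length. There is 1 condition, so only replicates were compared, by two-sided exact binomial tests over genes with at least 10 reads summed, adjusted over all, with a threshold of 0.05. The script was tested on simulated data. Python 3.11.15, scipy 1.17.1, pandas 2.3.3, edgeR 4.0.16 and DESeq2 1.42.0 (scaling factors only) were used. All members may be named, with values in full for the highest, the most different and the paralogues. Members and lists were chosen with earlier results of these data known. Alternatives covered count minimums, scalings, lengths, denominators and single replicates. Counts of 0 allow up to 3 reads.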

Additional observations from a re-analysis of the deposited data

Results flagged for a closer look

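Pseudogenes named after translation factors, which enter no comparison of levels, held 69 reads over both libraries, 19 in replicate 1 and 50 in replicate 2, above the 3 reads that a count of 0 allows. Of 150 such pseudogenes in the table, 6 had a read. EEF1A1P5 on chromosome 9 had 6 and 39 reads, EEF1A1P6 on chromosome 7 had 8 and 4, and EIF4BP7 on the X chromosome had 2 and 5. EEF1A1P9, EEF1DP1 and EIF1AXP1 had at most 2 reads each.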

How the results depend on the processing

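No paired analysis was possible because the total RNA has 1 condition, and no test compares it with the small RNA libraries that carry the same replicate numbers. The number of translation factors detected rose from 29 to 44 of 57 with a read in either replicate, beside 8296 of 19629 protein-coding genes. It fell to 18 with at least 10 reads in both, beside 2280 of 19629, and with 1 replicate left out it was 35 to 38. Of genes differing between libraries, 26 became 6 of 9 with at least 100 reads summed, where fewer genes are tested. Beside these, 329 of 626 protein-coding genes differed. With halved counts, an alternative added after the data were seen, it became 14 of 31, beside 1710 of 3890 protein-coding genes. Under TMM, DESeq2 size factors and nuclear protein-coding totals it stayed at 26, beside 3695 to 3711 of 5764 protein-coding genes. The family's share of 0.647% became 0.382% of all gene counts and 1.03% of protein-coding counts without mitochondrial genes and RPS29, and 0.568 to 0.727% in single replicates. The median level of 4.24 CPM per kilobase became 27.1 as CPM not divided by length, 6.98 with the longest transcript, 8.22 with the canonical transcript (added after the data were seen), 2.72 over members with no opposite exon and 9.90 over members read in both replicates; in single replicates it was 2.75 to 2.92. The share of EEF2, 17.9% of the family's reads, became 23.8% per kilobase, was 17.5% with pseudogene reads added and 17.4 to 18.4% in single replicates. That of the elongation factors, 40.4%, became 47.2% per kilobase and 27.4% without EEF2, and was 38.0 to 42.8% in single replicates. Of the 7 members with 1 to 9 reads summed, 2 were read in both replicates, beside 300 of 2532 protein-coding genes, so at this depth a 0 does not show absence.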
